A study of Mus musculus with 4 samples.

Results

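The cells of the early blastocyst were set against cultured mouse embryonic stem cells (mESCs), the line that stands in the dish for the pluripotent cells of the embryo. Members were the columns of the deposited gene and isoform tables whose names start with blastocyst (13 cells, sequencing run 1) or ESC (5 cells, run 3), 18 of the 161 cells of runs 1 to 3. The study read single oocytes, zygotes, blastomeres, blastocyst cells and mESCs by HIT-scISOseq, in which full-length cDNA carries a cell barcode and a unique molecular identifier (UMI) and is read whole on the PacBio platform. The embryos had DBA/2J x C57BL/6J as the strain label, and the methods give C57BL/6J females of 6 to 8 weeks, superovulated with PMSG and hCG, and DBA/2NCrl males. The mESCs were E14 Tg2A, a male line kept on gelatin in serum medium, and so are 1 line of 1 genotype, and whether the 5 cells came from separate cultures is not stated. The names of the blastocyst cells give no embryo, so it is not known how many embryos they came from. No cell of either kind was read in the run of the other, so stage and run cannot be told apart, and with 1 run a group no test was made. All intervals are exact and cover counting error only.

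A blastocyst has an outer epithelium, the trophectoderm, which pumps fluid into the cavity, and an inner cell mass, which divides into epiblast and primitive endoderm. mESCs are derived from the inner cell mass and keep the epiblast's pluripotency network, with Pou5f1, Sox2 and Nanog at its core, while they divide in culture. Single cells isolated from a whole blastocyst can belong to any of these lineages.

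The unit of the tables is copies per 100,000 UMIs of a cell. Blastocyst cells held 18215 to 56493 UMIs (median 47437) and mESCs 14267 to 25042 (median 22726), so 1 UMI stood for 1.77 to 5.49 copies in a blastocyst cell and for 3.99 to 7.01 copies in an mESC. Folds are given as log2 of (mean mESC + 1) over (mean blastocyst + 1), which understates the difference of genes at low levels. A gene is called past the fold where this value is 2 or more in size, that is 4-fold. Of the 3757 genes with a mean of at least 5 copies in either group, 575 (15.3%) were past the fold, 259 (6.89%) higher in mESCs and 316 (8.41%) higher in blastocyst cells. The median over all genes tested was 0.10. A gene could pass the filter by its level in 1 group alone. The counts and medians of gene lists below cover tested members only, and lean toward the group in which a member reached 5 copies. The 2 groups of cells did not overlap for 155 genes (4.13%) that were higher in mESCs and for 163 (4.34%) that were higher in blastocyst cells.

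**Figure D1:**
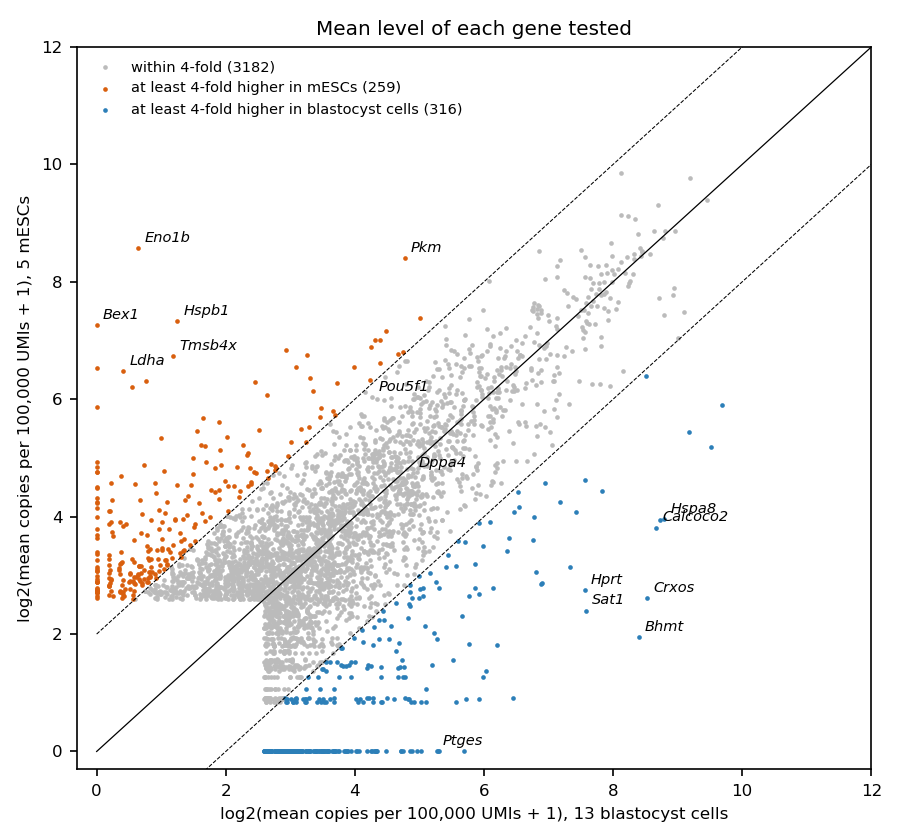
Mean level of the 3757 genes tested, as log2(mean copies per 100,000 UMIs + 1), in 13 blastocyst cells (horizontal) and 5 mESCs (vertical). The solid line marks equal levels and the dashed lines 4-fold, beyond which lie 259 genes higher in mESCs and 316 higher in blastocyst cells.

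The same runs were compared where the stage was the same. Between the 5 oocytes of run 1 and the 4 of run 3, 12 of 2843 genes (0.422%) were past the fold, and between 4 and 3 zygotes, 14 of 3205 (0.437%). Of the 575 genes, 130 could be measured in these oocytes, and 2 of them, Apoe and Tmsb4x, were past the fold there in the same direction. In zygotes 140 could be measured and none was. Of the transcripts that define the oocyte, Gdf9, Oosp1 and H1foo were listed in every one of the 18 cells. Gdf9, an oocyte growth factor, was at 4.06% of its run 1 oocyte level in blastocyst cells and at 3.30% of its run 3 level in mESCs, and H1foo, the oocyte linker histone, at 8.45% and 3.12%. In 32-cell blastomeres, read in run 2, Gdf9 stood at 2.45 copies, against 23.8 in blastocyst cells and 29.8 in mESCs. The part of this oocyte RNA in other genes was not tested, and oocyte levels are given beside some of the genes that oocytes hold in quantity.

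The groups were set by the column names, and the markers of pluripotent cells were then looked at in both. Pou5f1 had 70.4, 64.5, 55.9, 54.6 and 77.1 copies in the 5 mESCs and 0 to 45.4 copies (median 16.0) in the blastocyst cells. Every mESC lay above every blastocyst cell, and the log2 fold was 1.77, short of the limit. Sox2 had 13.2, 8.61, 3.99, 21.8 and 0 copies in the mESCs and was found in 5 of 13 blastocyst cells, at up to 20.9 copies. Nanog was listed at 0 in 2 mESCs and at 7.01 to 12 copies in the others, and at 0 to 20.7 copies in blastocyst cells. The last 2 factors overlapped between the groups. Hprt was looked at because E14 Tg2A is known as an Hprt-deficient line, and it was chosen after its values were seen. It had 117 to 304 copies in blastocyst cells (median 167) and 13.2, 4.30, 3.99, 0 and 7.01 copies in the mESCs, where its mean of 5.70 was 8.11% of the run 3 oocyte level. Of 12 fibroblast feeder markers, 8 were at 0 in each group (Col1a1, Col1a2 and Col3a1 at 0 in both), and their summed level was 0 to 7.08 copies in blastocyst cells and 0 to 21.0 in mESCs. Fn1 alone passed the filter (0.874 and 7.12 copies, log2 2.12).

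The 12 genes with the largest folds in mESCs were taken among those at 10 copies or more whose cells did not overlap. This choice requires a UMI in all 5 mESCs, and 6 of the 12 had no UMI in any blastocyst cell. Bex1, a small brain-expressed X-linked protein, had 211, 133, 104, 197 and 119 copies in the mESCs. It was found in 19 of 86 blastomeres of the 8-, 16- and 32-cell stages, at up to 16.1 copies (means 1.54, 2.38 and 0). With 158 UMIs in mESCs against 0 in blastocyst cells, it was 308-fold higher in mESCs when the blastocyst group was set to a floor of 3 UMIs. Each fold given below as "at least" is set against this floor and leaves out the counting error of the higher group. The exact lower limits are smaller, such as 247-fold for Bex1, 149-fold for Bex3 and 1.26-fold for Nr5a2. Bex3 had 83.6, 86.1, 91.8, 147 and 49.1 copies (at least 187-fold). Bex4 had 26.4, 12.9, 20.0, 43.7 and 28.0 copies (at least 50.7-fold). Tceal9, of a related family, had 48.4 to 98.3 copies, against 3 UMIs in 1 blastocyst cell. These 4 genes are neighbours on the X chromosome, within 133.0 kb (chrX:136138996-136271978, GRCm38, the mm10 build). The stretch holds 7 protein-coding genes of GENCODE vM21. Of the other 3, Tceal8 and Tceal7 had no UMI in either group, and Tceal5 was not in the table.

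Stmn2, a stathmin that binds tubulin, had 79.2, 68.8, 20.0, 76.4 and 42.1 copies in the mESCs and none in the embryo cells (at least 115-fold). Igfbp2, which binds insulin-like growth factors, had 8.80 to 42.1 copies (at least 58.4-fold). Pcolce, which helps the cleavage of procollagen, had 7.99 to 42.1 copies (at least 52.6-fold). The 3 were also at or near 0 in the 8-, 16- and 32-cell blastomeres, with means of at most 0.726 copies. Hspb1, a small heat shock protein, had 123.2, 138, 128, 300.3 and 112 copies in mESCs and 0 to 6.32 in blastocyst cells, a ratio of summed UMIs of 106 (interval 54.4 to 236). Ifitm3, a membrane protein known for blocking virus entry, had 28.0 to 131 copies against 0 to 3.77, and 32.4 copies in run 3 oocytes. Tmsb4x, which binds actin monomers, had 59.9 to 182 copies against 0 to 4.88. It is 1 of the 2 genes that also differed between the oocytes of both runs (0.103 copies in run 1 and 7.99 in run 3), at a level far under that of the mESCs.

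**Figure D2:**
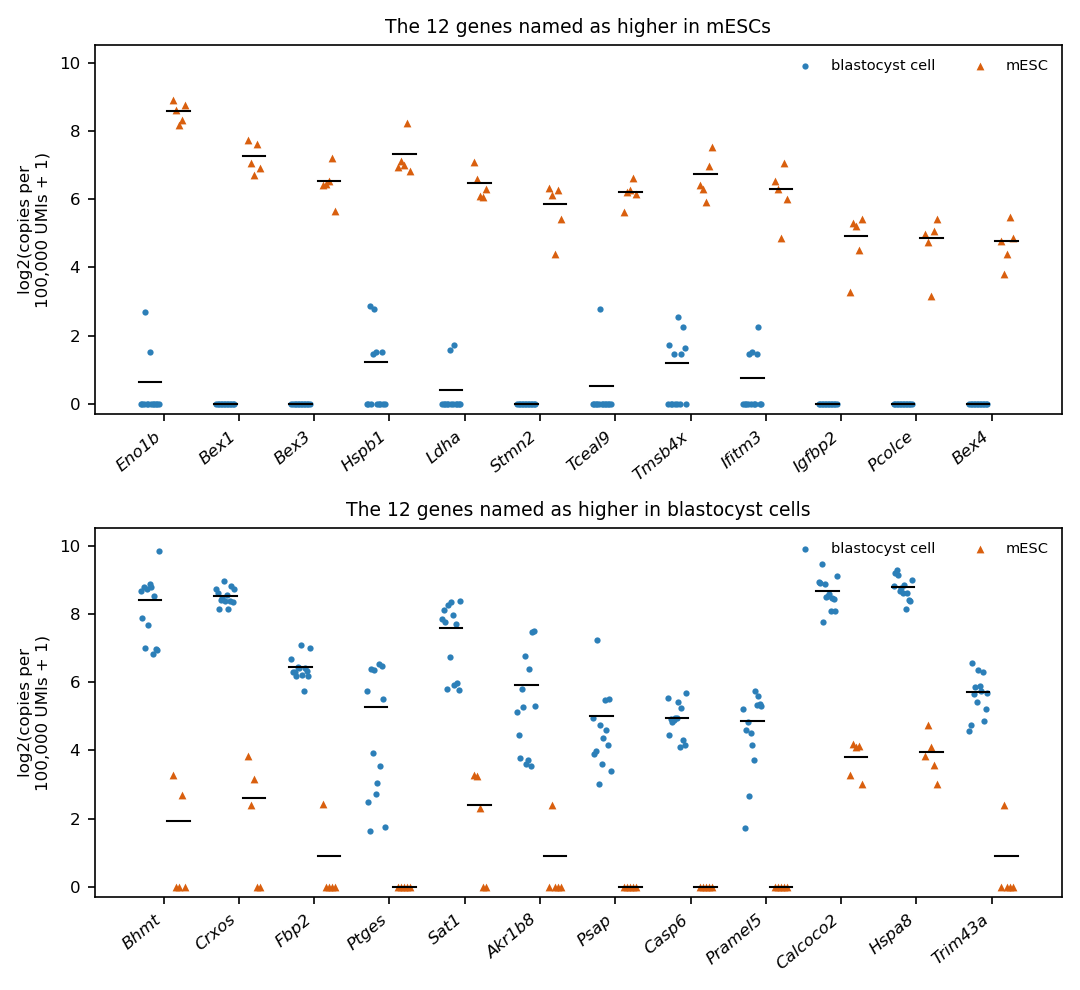
Level of the 24 genes with the largest folds without overlap, as log2(copies per 100,000 UMIs + 1), in each blastocyst cell (circles) and each mESC (triangles). Bars give log2 of the group mean + 1, and no mESC reaches into the range of the blastocyst cells for any of the 24.

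Genes of glycolysis, which breaks glucose down to pyruvate, lay mostly on the mESC side. Of the 15 glycolysis genes tested, 9 were past the fold and higher in mESCs and 1 was higher in blastocyst cells, with a median of 2.26 against 0.10 over all genes. Summed over the list, blastocyst cells held 79.1 to 209 copies and mESCs 825 to 1140. Ldha, which turns pyruvate into lactate, had 136, 94.7, 67.9, 65.5 and 77.1 copies in the mESCs and 2 UMIs over all blastocyst cells, a ratio of 272 (interval 73.2 to 2277). Ldhb, the other subunit of lactate dehydrogenase, had 65.5 to 217 copies against 2.11 to 12. Oocytes of run 3 held 126 copies of Ldhb, so that mESCs stood at 89.5% of that level, while Gdf9 and H1foo were at most at 3.30%.

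Pkm, pyruvate kinase, had 387, 288, 371, 284 and 364 copies in the mESCs and 7.90 to 65.3 copies (median 19.5) in blastocyst cells, a ratio of 12.9 (interval 10.6 to 15.6). Slc2a1, the glucose transporter GLUT1, had 8.80, 8.61, 16.0, 21.8 and 35 copies in mESCs and at most 5.66 in blastocyst cells. Tpi1, triosephosphate isomerase, had 14 to 88.0 copies against 0 to 7.53. Pfkl, Pdk1 and Gapdh were past the fold with overlapping cells, and fell short of it when 1 mESC was left out (to 1.20 and 1.58 without mESC 1 and 1.97 without mESC 2). Gapdh has many near-identical processed copies in the genome, so its 9.51 copies in mESCs may not be all of its RNA. Hk2, a hexokinase, went the other way, with 7.73 copies on average in blastocyst cells and no UMI in mESCs (at least 2.62-fold lower). So did Fbp2, a fructose bisphosphatase that works in the reverse pathway, with 52.6 to 136 copies in blastocyst cells and 1 UMI in the mESCs (ratio 90.8, interval 16.2 to 3595).

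The gene with the largest fold of all was Eno1b (log2 7.93), an intronless copy of the glycolysis enzyme Eno1. It had 480, 387, 288, 317 and 435 copies in mESCs and 2 UMIs over all blastocyst cells. Eno1 itself had 88.0, 133, 87.9, 92.8 and 63.1 copies against 0 to 22.6. The 2 sequences are near-identical, so how the reads were split between them is uncertain. Summed, they had 375 to 568 copies in mESCs and 0 to 22.6 in blastocyst cells (log2 5.72), and this sum does not depend on the split.

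On the embryo's side, 12 genes were chosen by the same rule, which here requires a UMI in all 13 blastocyst cells. Of these, 4 had no UMI in the mESCs. Bhmt, which remethylates homocysteine with betaine, had 112 to 906 copies in blastocyst cells (median 370) and 8.80, 0, 0, 5.46 and 0 copies in mESCs, a ratio of 119 (interval 40.5 to 575). Crxos, a homeobox gene of early embryos, had 279 to 494 copies against 0 to 13.2. Sat1, which acetylates polyamines, had 53.0 to 330 copies against 0 to 8.80. Calcoco2, an autophagy receptor, had 214 to 702 copies (median 369) against 8.80, 17.2, 16.0, 16.4 and 7.01. Hspa8, the constitutive heat shock protein 70, had 284 to 624 copies against 7.01 to 25.8, with the caution that it too has near-identical copies in the genome.

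Bhmt, Calcoco2 and Hspa8 were already high in the stages before the blastocyst. Bhmt had means of 244, 249 and 214 copies in 8-, 16- and 32-cell blastomeres, Calcoco2 244, 275 and 295, and Hspa8 331, 482 and 358. In oocytes of run 1 their means were 6.05, 7.30 and 9.90 copies, and in those of run 3 they were 2.37, 2.58 and 9.02. All of the 12 but Psap were lower in run 3 than in run 1, in oocytes and in zygotes. The largest such log2 fold in oocytes was -1.53, for Fbp2, short of the limit. The part of the run in these genes was not tested. Others of the 12 were low in 8-cell blastomeres, where Ptges had a mean of 1.18 copies, Akr1b8 5.31 and Psap 10.8, against 37.5, 59.9 and 31.4 in blastocyst cells. Casp6, a caspase, Psap, the lysosomal prosaposin, Pramel5, of the PRAME family, and Ptges, a prostaglandin E synthase, were the 4 with no UMI in mESCs, at least 10.4-fold, 8.73-fold, 9.64-fold and 12.3-fold lower there. Akr1b8, an aldo-keto reductase, and Trim43a, of a multicopy TRIM family, had 1 UMI each in the mESCs against 366 and 316 in the blastocyst cells. Pramel5 and Trim43a belong to families of close copies, and their counts are uncertain to that extent.

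Most markers of the outer epithelium that passed the filter were lower in the mESCs, and none of them separated the 2 groups of cells. Of 9 trophectoderm markers tested, 6 were past the fold and higher in blastocyst cells and none in mESCs (median -2.93), and 12 of the list's 19 had no UMI in mESCs. The summed level of the list was 35.4 to 607 copies in blastocyst cells (median 76.5) and 12.9 to 70.1 in mESCs (median 49.1), so the groups overlapped. Fabp3, a fatty acid binding protein, was found in all 5 mESCs, at 4.40 to 56.1 copies. Krt18 had 0 to 181 copies in blastocyst cells and 0 UMIs in mESCs (at least 15.2-fold). Krt8, its keratin partner, had 0 to 170 copies against 4.40, 0, 3.99, 10.9 and 7.01, and Gata3, a trophectoderm transcription factor, 0 to 45.7 against 0 (at least 2.79-fold). Cdx2, the lineage's best known factor, was under the filter, with 10 UMIs in blastocyst cells and 0 in mESCs. Of the junction and fluid transport genes, 6 of 9 were past the fold and higher in blastocyst cells and none in mESCs (median -2.18). Epcam, an epithelial adhesion molecule, had 29.8 to 134 copies against 0, 8.61, 3.99, 0 and 0, and Cldn7, a claudin, 5.34 to 65.9 against 1 UMI. Cdh1, E-cadherin, had 0 to 29.7 copies against 1 UMI in the mESCs (ratio 10.8, interval 1.87 to 432). Aqp3, a water and glycerol channel counted in both lists, and F11r, a junction adhesion molecule, fell short of the limit when 1 cell was left out (to -1.97 without mESC 5 and -1.92 without blastocyst cell 4).

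Krt18 was uneven among the 13 cells. In 7 cells it had 0 to 5.34 copies and in the other 6 it had 28.3 to 181 copies, a split seen in the values and not given by the labels. Krt8 had 0 to 23.1 copies in the 7 and 30.2 to 170 in the 6. Gata3 and Cldn4, another claudin, were at 0 in all 7 and present in all 6. Ptges ran from 2.11 to 14.2 in the 7 and from 44.6 to 91.5 in the 6, and Lrp2, an endocytic receptor, from 0 to 9.56 and from 15.1 to 121. Dab2, counted below as a primitive endoderm marker, ran from 0 to 17.1 in the 7 and from 32.1 to 77.0 in the 6. Tdgf1, a Nodal co-receptor of the epiblast, had 14.2 to 52.6 copies in the 7 and 0 to 3.77 in the 6. Its mESC values of 136, 38.7, 95.8, 43.7 and 28.0 copies lay within or above those of the 7 and above all of the 6. Bhmt had 235 to 906 copies in the 7 and 112 to 402 in the 6, so both sets were above the mESCs' highest value of 8.80. Pou5f1 did not split the cells this way, with 10.7 to 45.4 copies in the 7 and 0 to 23.7 in the 6, all under the mESCs' lowest value of 54.6.

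Primitive endoderm markers gave no single direction. Of 5 tested, Gata6 (1.86 to 32.9 copies against 0, at least 3.31-fold) and Dab2, an endocytic adaptor (0 to 77.0 against 1 UMI), were higher in blastocyst cells. Sparc, a secreted matrix protein, was higher in mESCs, with 0, 12.9, 35.9, 21.8 and 42.1 copies against at most 2.44. Of 14 endocytic and lysosomal genes, 6 were past the fold and higher in blastocyst cells (Lrp2, Dab2, Npc2, Gm2a, Psap and Lgmn) and 1, Apoe, in mESCs. Lrp2 had no UMI in mESCs and was at least 8.5-fold lower there. Apoe, a lipid carrier, had 66.0, 94.7, 28.0, 54.6 and 7.01 copies in mESCs and at most 12.6 in blastocyst cells, and it also differed between the oocytes of both runs (0.717 and 9.42 copies).

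Genes of naive pluripotency and the inner cell mass moved apart in both directions. Of 21 tested, 5 were past the fold on each side and the median was -0.16. Nr0b1 (Dax1), an orphan nuclear receptor, had 8.80, 21.5, 3.99, 38.2 and 35 copies in mESCs and 0 UMIs in blastocyst cells (at least 39.0-fold). Utf1, a chromatin factor of pluripotent cells, had 145, 55.9, 132, 137 and 63.1 copies against 0 to 23.1, without overlap. Klf2 (14 to 61.6 against 0 to 14.9) and Zfp42 or Rex1 (27.3 to 200 against 15.9 to 44.2) were also higher in mESCs. Zfp42, at a log2 of 2.05, fell short of the limit without mESC 3 (1.73) or under median-of-ratios scaling. Mycn rested on mESC 1, without which its log2 was 1.70.

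On the other side, Dppa2 had 43.9 to 209 copies in blastocyst cells and 4.30 to 27.3 in mESCs. Fbxo15 had 64.0 to 126 against 4.40 to 21.5. Tfcp2l1, a transcription factor of the naive state, had 7.31 to 45.7 copies in all 13 cells and was found in 1 of 5 mESCs, at 12.9. Nr5a2 had 29 UMIs against 0 (at least 1.65-fold). Dppa3 (Stella), a maternal factor also made in the embryo, had 379 to 717 copies in blastocyst cells (median 593) and 74.8, 43.0, 51.9, 21.8 and 21.0 in mESCs. The mESC mean of 42.5 was 4.62% of the 921 copies in run 3 oocytes, beside 2.49% to 3.91% for 5 oocyte genes. The blastocyst mean was 46.8% of the run 1 oocyte level, and 32-cell blastomeres held 567 copies. Dppa5a overlapped between the groups at 450 to 710 against 280.3 to 1100 copies, and so did Esrrb and Tcl1. Tcl1 had means of 139 copies in blastocyst cells and 92.9 in mESCs, and of 915 and 1171 in oocytes of run 1 and run 3.

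**Figure D3:**
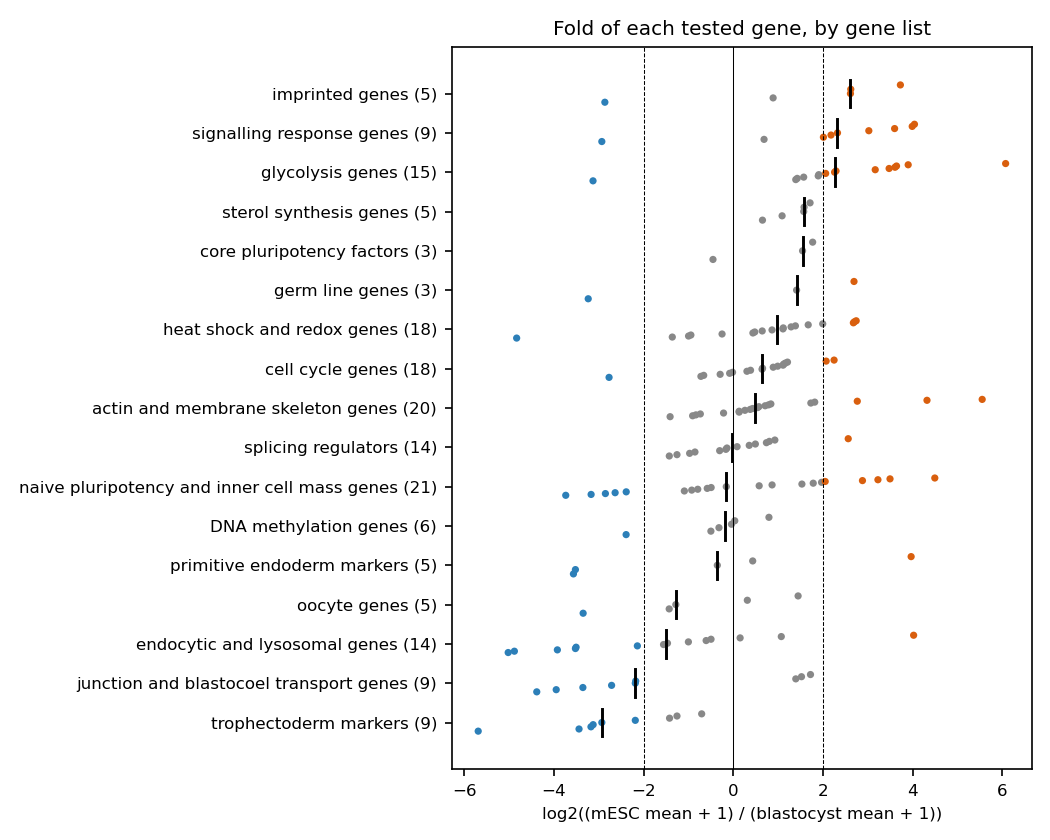
Log2 fold of each tested gene, mESC over blastocyst, by gene list, with the number tested in parentheses. Each point is a gene, dashed lines mark the 4-fold limit and short black bars the list's median, which runs from -2.93 for trophectoderm markers to 2.61 for imprinted genes.

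Of 22 genes that respond to signals, those that passed the filter were mostly higher in the cultured cells. Of 9 tested, 7 were past the fold and higher in mESCs and 1, Id2, in blastocyst cells (median 2.32), and the list's sum was 14.6 to 75.5 copies in blastocyst cells and 98.1 to 188 in mESCs. Socs3, the feedback inhibitor of the LIF and STAT3 pathway, had 26.4, 8.61, 28.0, 21.8 and 7.01 copies in mESCs and at most 2.29 in blastocyst cells. Id1, a target of BMP signalling, had 8.80, 43.0, 0, 5.46 and 35 copies against 1 UMI. Etv4, a target of FGF and ERK signalling, had 0, 21.5, 28.0, 10.9 and 14 copies against 0 UMIs, and Myc 0 to 20.0 copies against 3 UMIs. Except for Socs3, the cells of the 2 groups overlapped. Id3 (log2 2.01) was at 1.47 without mESC 3 and Ier2 (2.32) at 1.91 without mESC 1, short of the limit.

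Among 18 heat shock and redox genes, the metallothioneins Mt1 (66.0 to 210 copies against 2.39 to 96.8) and Mt2 and the peroxiredoxin Prdx2 (27.3 to 39.9 against 0 to 9.15) were higher in mESCs, and Hspa8 was higher in blastocyst cells. Of 18 cell cycle genes, the replication helicase subunits Mcm3 and Mcm6 were higher in mESCs, Mcm6 without overlap (26.4 to 65.5 against 2.29 to 19.5 copies). Mcm3, at a log2 of 2.07, fell short of the limit without mESC 4 (1.80) or under median-of-ratios scaling. Cdkn1a (p21), an inhibitor of cyclin-dependent kinases, had 37 UMIs in blastocyst cells and 0 in mESCs (at least 2.11-fold). With these 3 of 18 past the fold, the list was near the 15.3% over all genes. Of 14 splicing regulators 1 was past the fold, a share under that of all genes. This was U2af1, which recognises the 3′ splice site, with 70.4, 55.9, 79.9, 92.8 and 84.1 copies against 5.66 to 24.4.

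The number of genes was compared at equal UMIs. Thinned to 14000 UMIs a cell, blastocyst cells held 3387 to 4095 genes (median 3561) and mESCs 3526 to 3806 (median 3606), and the groups overlapped. Without thinning the medians were 6047 and 4515. The number of isoforms of a gene did differ. Thinned to 10000 isoform UMIs, genes with at least 5 UMIs had on average 2.43 to 3.71 isoforms in a blastocyst cell (median 2.70) and 2.172 to 2.31 in an mESC (median 2.24). The leading isoform took 60.3% to 80.4% of such a gene's UMIs in blastocyst cells and 82.2% to 84.2% in mESCs. Neither measure overlapped between the groups. The authors had removed isoforms found in fewer than 5 cells. An isoform in fewer than 5 mESCs was thus kept only where other cells of the series also held it. The part of this filter in the measures of isoforms and of transcript structure was not tested.

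The structure of the transcripts differed as well. By the classes of SQANTI3, full splice matches, which hold every junction of a reference transcript, made up 64.1% to 87.4% of isoform UMIs in blastocyst cells and 88.8% to 90.4% in mESCs. Incomplete splice matches, which hold some of them, made up 7.51% to 29.1% and 6.39% to 7.44%. Isoforms with an unannotated splice site made up 1.75% to 2.19% and 0.884% to 1.16%. Blastocyst cells 6, 12 and 13 held over 20% incomplete matches. Left out, they moved the blastocyst medians of isoforms per gene to 2.68 and of full splice matches to 84.8%, still apart from the mESCs. The mitochondrial share of UMIs was 1.76% to 4.83% in blastocyst cells and 0.904% to 1.32% in mESCs. The medians of full splice matches in oocytes of run 1 and run 3 were 73.6% and 75.0%.

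**Figure D4:**
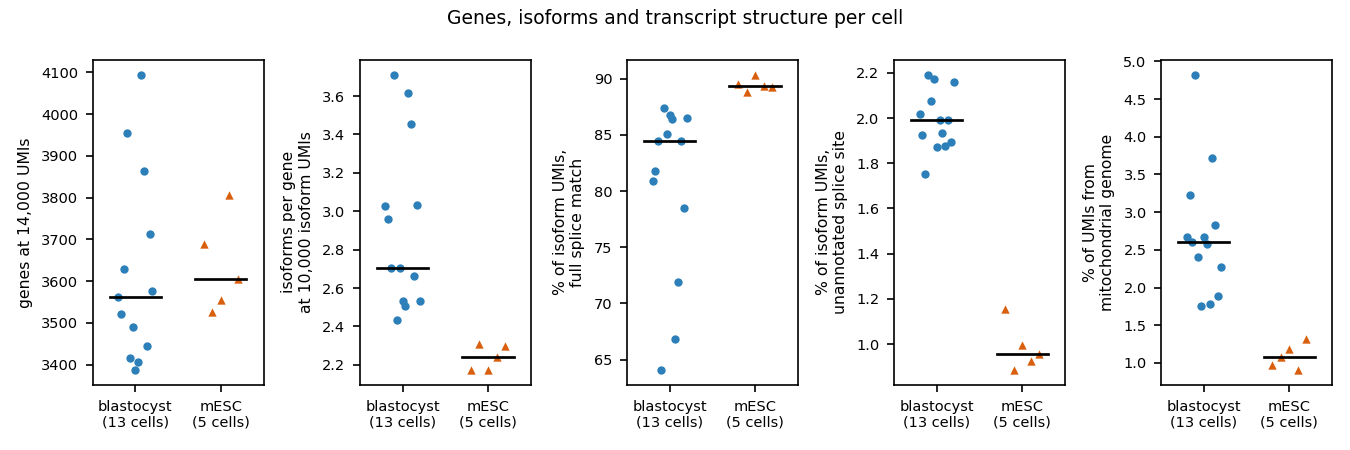
Per cell, for 13 blastocyst cells (circles) and 5 mESCs (triangles), the genes found at 14000 UMIs, the isoforms per gene at 10000 isoform UMIs, the share of isoform UMIs in full splice matches and in isoforms with an unannotated splice site, and the share of UMIs from the mitochondrial genome. Bars are medians, the vertical axes do not start at 0, and all measures except the number of genes separate the groups.

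Of 3415 isoforms with a mean of at least 5 copies in either group, 840 (24.6%) were past the fold, 405 (11.9%) higher in mESCs and 435 (12.7%) in blastocyst cells. For 95 of the 405 and 122 of the 435 the gene itself differed by less than 1 on the log2 scale. Those higher in mESCs came from 376 genes, were full splice matches in 89.6% of cases and had a median length of 1757 bases. Those higher in blastocyst cells came from 277 genes, were full splice matches in 56.1% and incomplete ones in 31.7%, and had a median length of 1163 bases. Over all isoforms tested, 82.7% were full splice matches. The mean transcript length per cell was 1330 to 1418 bases in oocytes of run 1 and 1433 to 1581 in those of run 3. In zygotes it was 1340 to 1387 and 1403 to 1488. Isoform folds were not computed between these runs, and the part of the run in the isoform counts and lengths was not tested.

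A change of the leading isoform was looked for in the 806 genes with at least 20 isoform UMIs in each group. The leading isoform differed in 52, and in 30 of these the intron chains differed too. The 52 include 2 genes in which both isoforms had equal UMIs in 1 of the groups, Eif3c in blastocyst cells and Sap18 in mESCs. It gained or lost at least 50 percentage points in 7 genes (0.868%). Since 3 of the 7, mt-Co2, Hspa9 and Rpl5, had the same introns in both leading isoforms, 4 remained when such isoforms were summed. Left out singly, mESC 1, mESC 3 and mESC 4 gave 4 genes and mESC 2 gave 3, since fewer genes then reached 20 UMIs. For Rpl5 and mt-Co2 the same difference was present between oocytes of the 2 runs. The Rpl5 isoform of 691 bases made up 56.9% of UMIs in blastocyst cells and 0% in mESCs, and 71.4% and 0% in oocytes of run 1 and run 3. The mt-Co2 isoform of 1949 bases made up 1.17% and 62.2%, and 4.44% and 63.2% in these oocytes. The mESCs' leading isoform of Hspa9 made up 22.1% and 80.0%, and 5.95% and 29.1% in these oocytes. Among other genes with the same introns, the blastocyst leader of Prdx1 had 56.4% in oocytes of run 1 and 8.74% in run 3. That of Clns1a had 13.8% and 11.5%.

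Dppa4, a chromatin protein of pluripotent cells, differed in form while its levels overlapped. The gene had 11 to 51.6 copies in blastocyst cells and 26.4, 12.9, 47.9, 27.3 and 14 in mESCs. One form ends exon 3 at an inner donor site and skips exon 4 (6 exons), and the other runs on for 105 more bases and includes exon 4 (7 exons). The 2 exons are printed here because they carry this difference, with the bases that only the longer form holds in capitals. Both are on the plus strand of chromosome 16 (GRCm38), at chr16:48289039-48289205 and chr16:48289328-48289378, and were read from the GENCODE vM21 transcript.
Dppa4 exon 3, long form: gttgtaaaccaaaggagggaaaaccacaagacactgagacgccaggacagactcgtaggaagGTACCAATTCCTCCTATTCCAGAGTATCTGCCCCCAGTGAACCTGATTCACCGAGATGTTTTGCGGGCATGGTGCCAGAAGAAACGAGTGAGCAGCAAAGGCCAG
Dppa4 exon 4: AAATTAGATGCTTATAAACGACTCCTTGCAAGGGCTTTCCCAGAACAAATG
The coding sequence is 732 bases long in the first form and 888 in the second, a difference of 156 bases or 52 codons that keeps the frame.

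The short exon 3 was found in 113 of 130 assigned UMIs in blastocyst cells (86.9%, interval 79.9% to 92.2%) and in 4 of 20 in mESCs (20.0%, interval 5.73% to 43.7%). The long exon 3 with exon 4 was found in 4 of 130 (3.08%, interval 0.845% to 7.69%) and in 14 of 20 (70.0%, interval 45.7% to 88.1%). It had 4, 2, 5, 2 and 1 UMIs in the 5 mESCs, against 1, 1, 2, 1 and 1 for all other forms together. It led in 4 mESCs and tied in the last, and led in none of the 13 blastocyst cells. Its share was 3.35% in 8-cell, 3.64% in 16-cell and 1.63% in 32-cell blastomeres, and 1 of 22 UMIs in oocytes. With 20 UMIs, the mESC share is known only to its interval. Without any 1 of the mESCs the gene had fewer than 20 UMIs there and could not be compared.

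**Figure D5:**
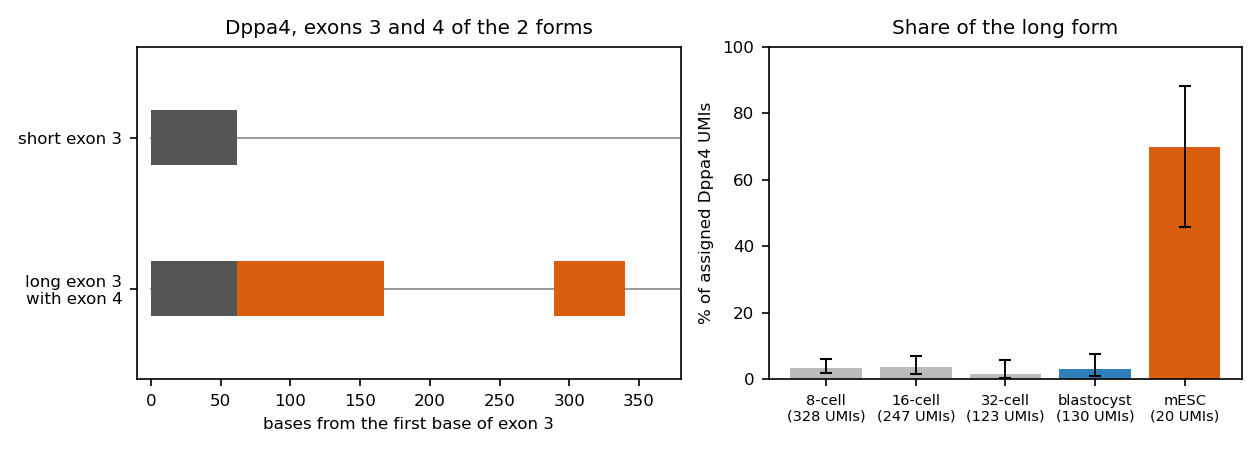
Left, exons 3 and 4 of Dppa4 in the 2 forms, drawn to scale in bases from the first base of exon 3, with the stretches only the longer form holds in orange. Right, the percent of assigned Dppa4 UMIs in the long form, with exact 95% intervals, which is 70.0% in mESCs and at most 3.64% in the embryo cells shown.

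The other genes whose leading isoforms differed in introns were of 2 kinds, with another start or splice choice or with a leader that held few of the exons. Eloc, the elongin C subunit of ubiquitin ligases (chr1:16643198-16657324, GRCm38), was led in blastocyst cells by an isoform of 4 exons and 811 bases that had 75.1% of 2149 UMIs there and 31.7% of 82 in mESCs. The mESCs' leading isoform, with 607 bases and another intron chain, had 0.884% (interval 0.533% to 1.38%) and 36.6% (26.2% to 48.0%). In oocytes of run 1 and run 3 the latter had 0.315% and 0.218%. Polr1d, a subunit shared by RNA polymerases I and III, was led by a 2-exon isoform in blastocyst cells (81.2%, interval 75.8% to 85.9%, against 36.6%) and by a 3-exon isoform in mESCs (61.0%, interval 44.5% to 75.8%, against 17.1%). The 2-exon isoform had 90.5% and 91.9% in oocytes of both runs. The part of the run in the isoform shares of these 2 genes was not tested.

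Cdc123, a factor for assembly of translation initiation factor 2, was led in blastocyst cells by a 3-exon isoform of 512 bases, with 14 of 29 UMIs against 0 of 23, and in mESCs by the 13-exon isoform of 1281 bases, with 21 of 23 against 6 of 29. Mcm3 was led by a single-exon isoform of 913 bases in blastocyst cells (51.2% against 10.0%) and by the 17-exon isoform in mESCs (70.0% against 22.0%). Mybl2, a cell cycle transcription factor, and Eif3b, a translation initiation subunit, were led by short isoforms of 979 and 729 bases in blastocyst cells, each under 15% of the gene (5 UMIs against 4 for the mESCs' leader in Mybl2, and 12 against 6 in Eif3b), and by 14-exon and 19-exon isoforms in mESCs (72.7% and 64.3%). With that lead of 1 UMI, Mybl2 was no longer among the 7 genes without blastocyst cell 8, 9 or 12 or without the 3 cells rich in incomplete matches. Trim28, a corepressor of retroelements, was led by a 17-exon isoform in mESCs at 49.1% against 8.45%. In the other direction, Thyn1 was led by an isoform with 1 exon more in blastocyst cells (33.8% against 11.5%), and so was Oosp3 (48.1% against 13%). In oocytes of run 1 and run 3 this Oosp3 isoform had 42.9% and 17.3%. That of Thyn1 had 52.6% of 19 UMIs and 0% of 5. Over the 52 genes the mESC leader was the longer one in 33 and the shorter in 19. Transcripts of run 3 were also the longer ones in oocytes and in zygotes, and the part of the run was not tested.

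Pkm, in contrast, kept its form while its level differed. Its transcripts include either exon 9 (M1) or exon 10 (M2), which are alternatives of equal length. They are shown in full, with the bases at which they differ in capitals, because a long read settles which was used. Both lie on the plus strand of chromosome 9 (GRCm38), at chr9:59675029-59675195 and chr9:59675568-59675734, and were read from GENCODE vM21 transcripts.
Pkm exon 9 (M1): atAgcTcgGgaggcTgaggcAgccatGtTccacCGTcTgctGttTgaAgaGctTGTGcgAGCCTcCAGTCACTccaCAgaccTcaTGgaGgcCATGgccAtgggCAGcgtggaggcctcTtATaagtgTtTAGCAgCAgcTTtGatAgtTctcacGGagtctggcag
Pkm exon 10 (M2): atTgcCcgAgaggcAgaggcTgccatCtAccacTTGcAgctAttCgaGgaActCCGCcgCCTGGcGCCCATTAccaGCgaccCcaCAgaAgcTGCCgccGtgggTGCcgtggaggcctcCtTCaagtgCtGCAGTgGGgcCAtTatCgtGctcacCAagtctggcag
Of 167 bases 103 are identical and 64 differ (61.7% identity). The M2 exon was in 97 of 99 informative UMIs in blastocyst cells (98.0%, interval 92.9% to 99.8%) and in 304 of 313 in mESCs (97.1%, interval 94.6% to 98.7%). By mESC it had 76, 54, 80, 46 and 48 UMIs, against 2, 3, 2, 0 and 2 for M1. The shares overlap within their counting intervals.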

How the data were processed

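Single cells were read by HIT-scISOseq in 3 sequencing runs. The authors mapped consensus reads to mm10, assigned genes, collapsed reads into isoforms, classified these with SQANTI3 and kept those present in at least 5 cells. The deposited values are of the CPM kind: copies per 100,000 UMIs of a cell. Whole UMIs were recovered from them (100.0% of values within 0.001 UMI). Exon structures came from the deposited annotation. Of the 161 columns of each table, 123 were used and 38 were not. The run of a cell came from the study's barcode list, and barcodes shared between runs were not counted.

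Group means over cells were compared by fold with no test, since each group is 1 run. Pooled levels have exact Poisson, and shares exact Clopper-Pearson, intervals at 95%. Thinning drew UMIs without replacement 10 times. Members and gene lists were chosen with earlier results of these data known. The genes named were list members, the 12 in each direction with the largest fold among those at 10 or more copies without overlap of cells (leaving out unnamed gene models), and the 10 genes with the largest change of leading isoform among those whose introns differed. Other genes were chosen after their values were seen. The steps were tested on simulated counts. Python 3.11.15, numpy 2.4.6, scipy 1.17.1, pandas 2.3.3 and matplotlib 3.10.9 were used.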

Additional observations from a re-analysis of the deposited data

Results flagged for a closer look

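In 30 values looked at over the 5 mESCs (11 measures per cell and 19 genes), 2 had a cell whose gap to its neighbour was over 0.71 of the group's range, and chance flags about 1 in 20. For Hspb1, a small heat shock protein, mESC 4 stood at 300.3 copies per 100,000 while the others had 112 to 138. The share of isoform UMIs in single-exon isoforms was 3.69% in 1 mESC, above the median of 3.02%.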

How the results depend on the processing

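The 24 genes with the largest folds among those whose cells did not overlap stayed past the fold under all 26 alternatives computed for each. They were chosen from the same values for those folds, so this was largely set by the choice. Of 88 past the fold among 208 list members and genes named by fold, 53 stayed past it under every alternative and none changed sign. Counts of genes past the fold, higher in mESCs and in blastocyst cells, were 66 and 89 with a pseudocount of 5 and 143 and 188 with a filter at 10 copies. The blastocyst side had 480 genes with no filter and 528 with medians over cells. For isoforms these were 77 and 89, 211 and 242, and 745 with no filter. Leaving out 1 cell gave 259 to 300 and 306 to 361 genes, and 380 to 457 and 387 to 460 isoforms. Without the 3 cells rich in incomplete matches, an alternative chosen after seeing the data, they were 269 and 288 genes and 354 and 357 isoforms. Median-of-ratios scaling moved the median log2 of all genes by -0.14 to -0.04.

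Genes whose leading isoform differed were 25 with at least 10 UMIs, 2 with at least 50, 4 with equal intron chains summed, and 3 to 10 with 1 cell left out, where fewer or other genes reach the minimum. Medians of genes per cell in blastocyst cells and mESCs were 2010 and 2035 at 5000 UMIs and 6047 and 4515 without thinning. Isoforms per gene were 3.496 and 2.47 without thinning and 1.97 in mESCs with at least 3 UMIs, where the leading isoform had 81.9% (81.5% without thinning). Isoforms with an unannotated splice site made up 1.76% in blastocyst cells over genes found in both groups. At 14267 to 25042 UMIs an mESC shows few genes under 5 copies. No paired analysis was possible because the blastocyst cells and the mESCs were separate cells read in different runs.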

Other observations

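Of 5 imprinted genes tested, 3 were past the fold and higher in mESCs and 1 in blastocyst cells. Mest, expressed from the paternal allele, had 13.2, 43.0, 39.9, 21.8 and 14 copies in the mESCs and 0 to 2.29 in blastocyst cells, and 36.2 copies in oocytes of run 3. Nnat had 5 UMIs against 0, and Phlda2 10 against 5. Igf2r, expressed from the maternal allele and a receptor for insulin-like growth factor 2, had 35 UMIs in blastocyst cells and 0 in mESCs. Of 6 DNA methylation genes 1 was past the fold, a share near the 15.3% over all genes. This was Tet2, a demethylating oxygenase, with 48 UMIs in blastocyst cells and 1 in mESCs. Dnmt3b, a DNA methyltransferase, had 0 to 9.15 copies in blastocyst cells and 0 to 14 in mESCs. Of 3 germ line genes, Tex19.1 was higher in blastocyst cells (16.5 to 115 copies against 0 to 14), while Rhox5 rested on mESC 4 alone, with 27.3 copies. Khdc3, a protein of the oocyte's subcortical complex that was also present in 32-cell blastomeres (106 copies), had 104 to 287 copies in blastocyst cells and 0 to 28.0 in mESCs.

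Of 79 nuclear genes of the respiratory chain, 1 was past the fold (Ndufs5, 50.3 to 88.5 copies in blastocyst cells and 2 UMIs in mESCs). Their summed level was 3447 to 4775 copies in blastocyst cells and 5316 to 5923 in mESCs, without overlap. The 11 mitochondrially encoded genes tested had a median of -1.35, with 1 past the fold. Of 81 ribosomal protein genes 3 were past the fold and lower in mESCs (median 0.06). Rpl39l, a copy of Rpl39 known from germ cells, had 52.7 to 160.0 copies in blastocyst cells and 0 to 32.8 in mESCs. No sterol synthesis gene of 5 tested was past the fold (median 1.57). Of 20 actin and membrane skeleton genes 3 were, all higher in mESCs: Tmsb4x, S100a6 and Vim, the last with 6 UMIs against 0. This share was near the 15.3% over all genes, and those of the other lists in this paragraph were under it. S100a6 had 0.260 copies in oocytes of run 1 and 4.33 in those of run 3.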
